A study of Rattus norvegicus with 12 samples.

Results

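The circular RNAs (circRNAs) described here come from Anks1a and Anks1b, a pair of related genes that encode scaffold proteins with ankyrin repeats. They are the 6 circRNAs of these genes among the 75 circRNAs used here from the supplementary list that the study drew up as heroin-associated, out of 14145 circRNA probes on the array. rno_circRNA_009909 comes from Anks1a, and the other 5, rno_circRNA_015168, rno_circRNA_015171, rno_circRNA_015172, rno_circRNA_015180 and rno_circRNA_015182, come from Anks1b. Membership of that list was decided by the difference between heroin and saline rats, so the heroin and saline values below describe the choice and are given without a test. Other probes for Anks1a or Anks1b may be on the array, but host genes were taken from the list alone.

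A circRNA forms when a splice donor joins a splice acceptor that lies upstream of it in the same transcript. The closed ring has no free end, so it withstands the exonuclease RNase R, and the join, called the backsplice junction, is the sequence that sets it apart from the linear mRNA. ANKS1B, also known as AIDA-1, is a protein of the postsynaptic density that binds the scaffold PSD-95 and has been tied to the transport of the NMDA receptor subunit GluN2B. ANKS1A, also known as Odin, has the same build of ankyrin repeats, SAM domains and a PTB domain, and binds Eph receptors. Both genes make proteins, and no role of the circRNAs themselves is assumed here.

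All animals were adult male Sprague Dawley rats, 8 weeks old when they arrived, and each of the 12 arrays holds RNA from the orbitofrontal cortex of 1 rat. The paper's methods speak of 8 male samples sent for array analysis, though their intensity filter counts 12. The labels give 12 arrays, and all were used by their labels. Heroin and saline rats (n = 3 each) had a jugular catheter and took infusions in 10 daily sessions of 6 h. Sucrose rats (n = 3) worked for chocolate sucrose pellets and naive rats (n = 3) were only handled and placed in the chamber, in 10 daily sessions of 2 h and without surgery. Saline and naive rats thus differ at least in surgery, infusion and session length together. Heroin rats differ from sucrose and naive rats in all of these as well as the drug. The paper also describes single housing and food restriction for catheterized rats, and does not say whether the sucrose and naive rats had them. RNA was taken straight after the last session, so no later time was measured. In a piece of bulk tissue, fewer cells of a type and less RNA per cell cannot be told apart.

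Linear RNA was digested with RNase R before labelling, and the array carries probes for 81 linear transcripts, of which 38 matched a gene symbol. Neither Anks1a, Anks1b nor any of the cell type markers looked up was among those matched, so the tissue label could not be set against markers and no linear host transcript was compared. The share of circRNA probes well above background lay between 95.7% and 98.6% per array, and the median intensity between 70.1 and 141. All 6 Anks1a and Anks1b probes were well above background on all 12 arrays. Scan times place 8 arrays on slide 1, namely every heroin and saline array with sucrose 1 and 2, and 4 on slide 2, namely sucrose 3 with the naive arrays.

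The probes of the 6 circRNAs are shown because they explain which of the measurements share sequence. Each has 60 bases and is read from the study's supplementary list. Capitals mark the run of bases that all the probes with the same backsplice end have in common, and the Anks1a probe, which has no such partner, has none.
rno_circRNA_009909 (Anks1a): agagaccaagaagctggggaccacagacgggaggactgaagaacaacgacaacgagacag
rno_circRNA_015168 (Anks1b): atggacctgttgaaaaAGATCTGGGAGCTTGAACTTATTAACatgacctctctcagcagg
rno_circRNA_015171 (Anks1b): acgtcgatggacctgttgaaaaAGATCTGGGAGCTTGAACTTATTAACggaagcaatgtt
rno_circRNA_015172 (Anks1b): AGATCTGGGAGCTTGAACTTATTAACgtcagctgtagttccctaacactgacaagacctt
rno_circRNA_015180 (Anks1b): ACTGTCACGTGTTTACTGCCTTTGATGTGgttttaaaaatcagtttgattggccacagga
rno_circRNA_015182 (Anks1b): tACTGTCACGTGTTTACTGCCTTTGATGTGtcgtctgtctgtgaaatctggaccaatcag

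The Anks1b circRNAs fall into 2 groups by where the ring closes. The list places rno_circRNA_015168 at chr7:31288682-31468836, rno_circRNA_015171 at chr7:31434492-31468836 and rno_circRNA_015172 at chr7:31463445-31468836, all on the plus strand, so these 3 share their end and differ in their start. Likewise rno_circRNA_015180 at chr7:31696916-31750132 and rno_circRNA_015182 at chr7:31716481-31750132 share a later end, and 228080 bp separate the first group from the second. In each probe the capitals come before the bases that differ, the order in which a shared end is followed by different starts when a ring is read across its junction. Of these 5 circRNAs, 4 are listed as exonic, while rno_circRNA_015172 is listed as sense overlapping, meaning that it lies on the strand of the gene without following its annotated exon borders.

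The genomic distance between the backsplice positions ran from 5391 bp for rno_circRNA_015172 to 180154 bp for rno_circRNA_015168, with 34344 bp for rno_circRNA_015171, 53216 bp for rno_circRNA_015180 and 33651 bp for rno_circRNA_015182. These are distances in the genome and not lengths of the rings, since a junction probe does not show which exons lie between. Anks1a rno_circRNA_009909 is listed as exonic at chr20:9765218-9777902 on the plus strand, a distance of 12684 bp. No source used here names the genome build of these positions. The listed transcripts of 5 of the 6 circRNAs matched a RefSeq transcript of the same gene symbol (GRCr8 gene table), and that of rno_circRNA_015182 was not in the table.

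**Figure D1:**
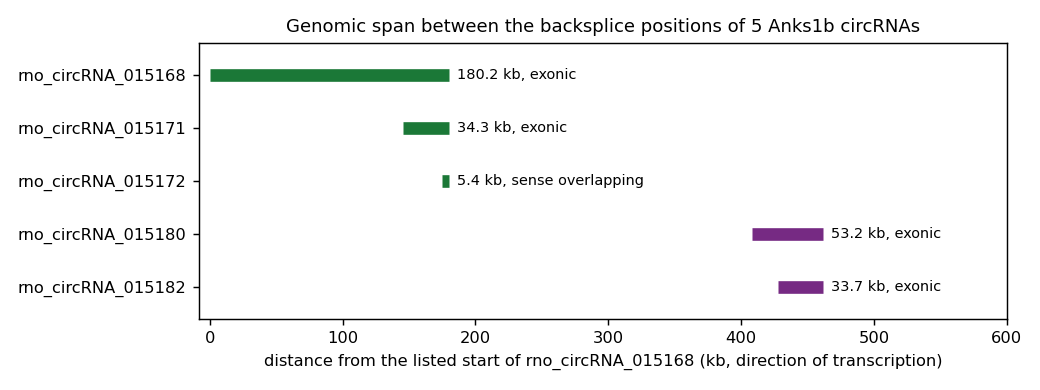
Genomic span of the 5 Anks1b circRNAs (bars; green and purple mark the earlier and the later shared end), plotted as distance in kb from the listed start of rno_circRNA_015168. The first 3 bars stop at the same point and the other 2 at a later one, with spans between 5.4 and 180.2 kb.

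Shared ends carry over into the probes. rno_circRNA_015168 and rno_circRNA_015171 had a common run of 42 of 60 bases, rno_circRNA_015171 and rno_circRNA_015172 one of 27, rno_circRNA_015168 and rno_circRNA_015172 one of 26, and rno_circRNA_015180 and rno_circRNA_015182 one of 29. Across the 2 ends, and between Anks1a and Anks1b, the longest common run was 4 to 6 bases. Probes with the same end are therefore not independent readings, and how much one ring binds the probe of another was not tested. The GC content was 55% in the Anks1a probe and 40% to 45% in the Anks1b probes, against a median of 45% and a range of 28.3% to 61.7% over the 75 listed probes.

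Levels below are log2 of the processed Agilent signal after quantile normalization over the 12 arrays, so a difference of 1 is a doubling. The Anks1b circRNAs were lower in heroin rats than in any other rat on the arrays. The Anks1a circRNA was higher in heroin than in saline rats, but its lowest heroin array barely cleared the naive rats and overlapped the sucrose rats. The levels of the circRNAs that close at the earlier Anks1b end are given first.

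The level of rno_circRNA_015168, the Anks1b circRNA with the longest span, was 7.08, 6.65 and 6.89 in heroin rats, 7.52, 7.81 and 7.69 in saline rats, 7.97, 7.58 and 8.31 in sucrose rats and 7.83, 7.81 and 7.48 in naive rats. Every heroin array lay below every other array, while the other 3 groups overlapped. The heroin mean was 6.87 ± 0.21 (SD, n = 3) and the saline mean 7.67 ± 0.15 (SD, n = 3), a log2 difference of -0.80 (SE 0.20), or 1.74-fold lower.

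For rno_circRNA_015171, whose probe shares most bases with that of rno_circRNA_015168, the level was 6.80, 6.31 and 6.76 in heroin rats, 7.35, 7.77 and 7.54 in saline rats, 7.95, 7.45 and 8.50 in sucrose rats and 7.76, 7.89 and 7.42 in naive rats. Here too the heroin arrays stood below the 9 others, and the sucrose rats spread most. Heroin and saline means of 6.62 ± 0.27 and 7.55 ± 0.21 (SD, n = 3 each) differed by -0.93 (SE 0.25), or 1.91-fold lower.

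The level of rno_circRNA_015172, the Anks1b circRNA with the shortest span, was 6.83, 6.23 and 6.63 in heroin rats, 7.23, 7.67 and 7.48 in saline rats, 7.85, 7.21 and 8.14 in sucrose rats and 7.65, 7.60 and 7.19 in naive rats. Its heroin arrays were again the lowest 3 of the 12. The heroin mean of 6.56 ± 0.31 lay below the saline mean of 7.46 ± 0.22 (SD, n = 3 each) by a log2 difference of -0.90 (SE 0.25).

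At the later Anks1b end, the level of rno_circRNA_015180 was 8.53, 8.20 and 8.93 in heroin rats, 9.56, 9.65 and 9.43 in saline rats, 9.66, 9.71 and 10.18 in sucrose rats and 9.91, 9.78 and 9.36 in naive rats. The saline rats were the tightest group of this circRNA and did not reach down to the heroin rats. Heroin and saline means of 8.55 ± 0.37 and 9.55 ± 0.11 (SD, n = 3 each) differed by -0.996 (SE 0.22), or 1.99-fold lower.

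The level of rno_circRNA_015182, with the same end as rno_circRNA_015180 and a later start, was 8.74, 8.52 and 9.06 in heroin rats, 9.75, 9.87 and 9.67 in saline rats, 9.71, 9.90 and 10.35 in sucrose rats and 10.13, 10.05 and 9.60 in naive rats. The order of the rats was close to that of rno_circRNA_015180. The heroin mean of 8.77 ± 0.27 was below the saline mean of 9.76 ± 0.10 (SD, n = 3 each) by -0.99 (SE 0.21), or 1.98-fold.

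Anks1a rno_circRNA_009909 ran the other way. Its level was 6.97, 8.17 and 7.90 in heroin rats, 6.41, 6.65 and 6.42 in saline rats, 7.10, 6.75 and 6.98 in sucrose rats and 6.96, 6.51 and 6.95 in naive rats. Heroin 2 and heroin 3 were the highest arrays, but heroin 1 lay within the range of the sucrose rats and just above the highest naive rat. Heroin and saline means of 7.68 ± 0.63 and 6.49 ± 0.14 (SD, n = 3 each) differed by 1.19 (SE 0.26), or 2.28-fold higher. Part of that distance lay on the saline side, since the saline mean was also below the sucrose mean of 6.94 ± 0.18 and the naive mean of 6.81 ± 0.26 (SD, n = 3 each). The heroin mean was higher than the sucrose mean by 0.74 on the log2 scale and higher than the naive mean by 0.87. The heroin and naive arrays did not overlap, which held for 24.8% of all probes tested. They were parted only by 6.973 in heroin 1 against 6.962 in naive 1. In the deposited log2 values naive 1 (7.245) lay above heroin 1 (7.240), so there the 2 groups overlapped. All differences from heroin rats reuse the heroin arrays of the choice.

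**Figure D2:**
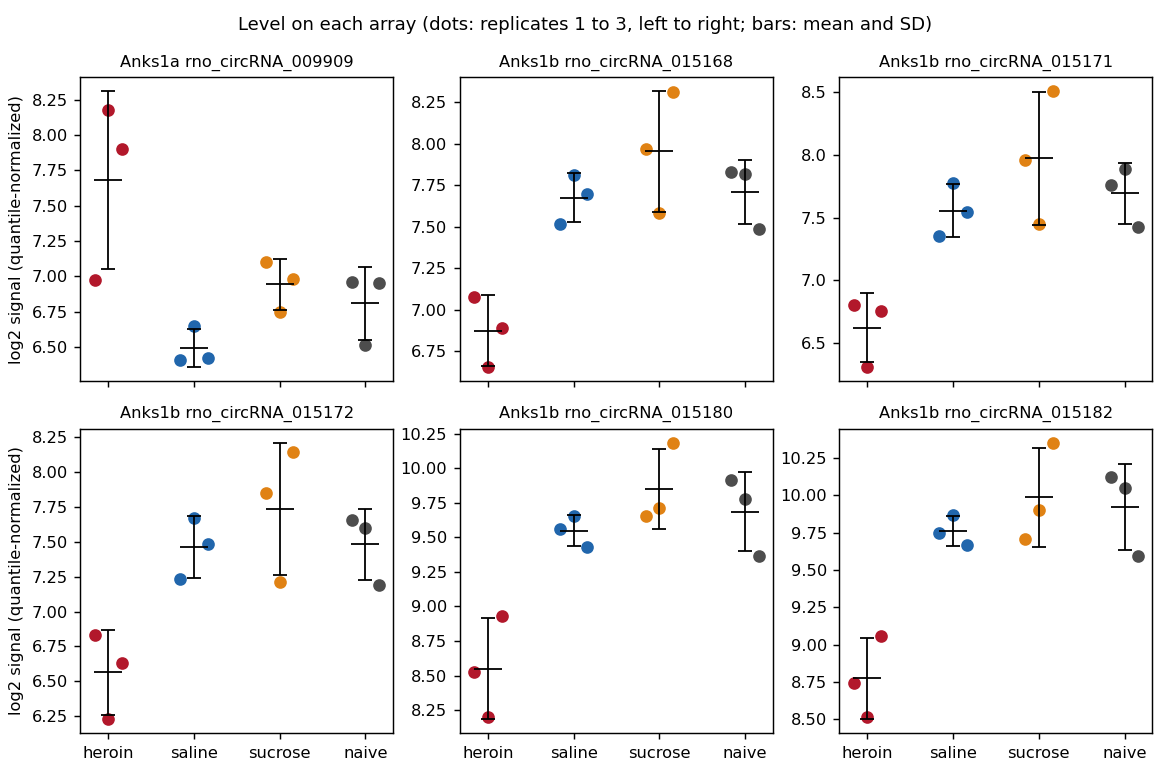
Level of each of the 6 circRNAs on every array (log2 of the quantile-normalized signal, dots) by group, with the mean and SD of 3 arrays (black bars). In the 5 Anks1b panels the heroin dots lie below all other dots, and in the Anks1a panel 1 heroin dot, at 6.97, lies within the range of the sucrose dots.

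The median heroin and saline difference of the 5 Anks1b circRNAs was -0.93, against 0.0053 over all 13979 probes tested. All 5 of them and the Anks1a circRNA had heroin arrays that did not overlap the saline arrays, which held for 14.7% of all probes tested. All 6 also passed the study threshold of more than 1.5-fold with an unadjusted p below 0.05, which 2.6% of the probes tested did. These counts are no result, because the members were picked by this contrast. For scale, no probe of the array reached an adjusted p below 0.05 between heroin and saline (limma, Benjamini-Hochberg), while 941 (6.73%) had an unadjusted p below 0.05.

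The sucrose and naive rats did not enter the choice, but any comparison of them with the heroin rats reuses the heroin arrays that did. All 5 Anks1b circRNAs had their heroin arrays below all 9 other arrays, a pattern seen in 127 of 13979 probes, or 0.909%. The gap between the highest heroin array and the lowest of the 9 others was 0.36 for rno_circRNA_015172, 0.40 for rno_circRNA_015168, 0.44 for rno_circRNA_015180, 0.53 for rno_circRNA_015182 and 0.55 for rno_circRNA_015171. Among the 75 listed circRNAs, 16 lay below and 7 above all 9 other arrays (1.11% of all probes lay above), and those 16 include the 5 Anks1b circRNAs. Probes with the same backsplice end share bases, so the 5 are not separate readings and the count shows no excess of Anks1b. The heroin mean lay below the sucrose mean by a median of -1.21 (range -1.35 to -1.08) over the 5, and below the naive mean by a median of -1.07 (range -1.15 to -0.83). These values share the heroin arrays with the heroin and saline difference and are not further evidence for it.

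In group means, the order for each Anks1b circRNA was heroin, saline, naive and sucrose from lowest to highest. Only the step from heroin to saline was free of overlap, and neither saline and naive nor naive and sucrose differed beyond the spread of their arrays. For Anks1a the order was saline, naive, sucrose and heroin, and each neighbouring pair overlapped. The lowest single array was heroin 2 and the highest sucrose 3 for all 5 Anks1b circRNAs. For Anks1a heroin 2 was the highest array and saline 1 the lowest.

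**Figure D3:**
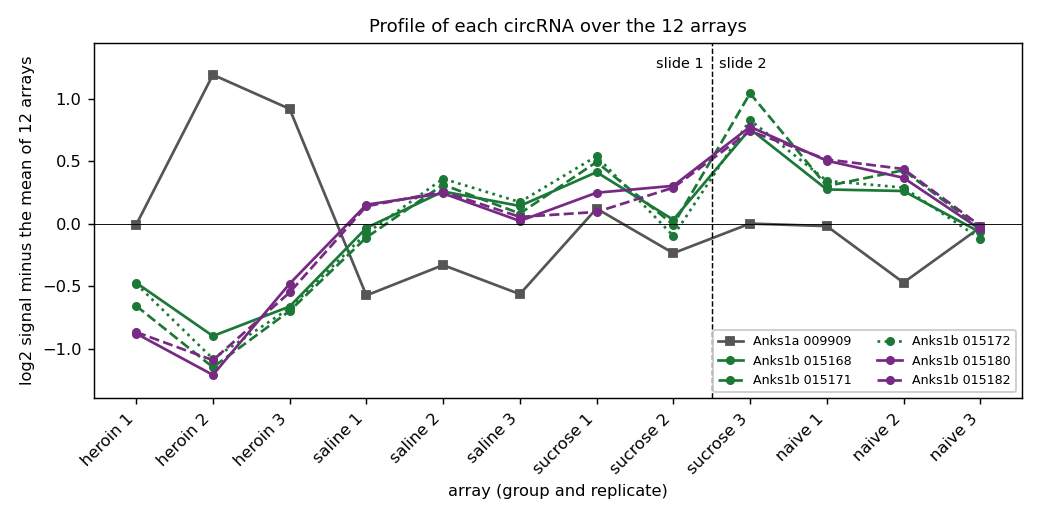
Level of each circRNA on the 12 arrays as the log2 difference from its own mean over the arrays (squares, Anks1a; circles, Anks1b, green for the earlier and purple for the later shared end); lines only join points of one circRNA, and a dashed line parts the slides. The 5 Anks1b curves lie together below 0 on the heroin arrays and peak on sucrose 3, while the Anks1a curve is highest on heroin 2 and heroin 3.

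Sucrose against naive was the comparison in which the circRNAs could be tested, since none of its 6 arrays was used to choose them. It asks whether they differ between rats that worked for a food reward and rats that did not, with no surgery in either. The limma intervals and p values take their spread from all 4 groups, so the heroin and saline arrays of the choice enter that spread. With only the 6 arrays compared, the SE rose from 0.199 to 0.228 for rno_circRNA_015168 and from 0.250 to 0.275 for rno_circRNA_015171. The SE also rose for the other Anks1b circRNAs but fell from 0.263 to 0.204 for Anks1a. None of the 6 circRNAs differed beyond the spread between rats. The log2 difference (sucrose minus naive) was 0.25 for rno_circRNA_015168 (95% interval -0.19 to 0.68, adjusted p = 0.635), 0.28 for rno_circRNA_015171 (-0.26 to 0.82, adjusted p = 0.674) and 0.25 for rno_circRNA_015172 (-0.28 to 0.79, adjusted p = 0.696; limma over 13979 probes, Benjamini-Hochberg).

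At the later end it was 0.17 for rno_circRNA_015180 (-0.31 to 0.64, adjusted p = 0.786) and 0.06 for rno_circRNA_015182 (-0.39 to 0.52, adjusted p = 0.925), and for Anks1a it was 0.14 (-0.43 to 0.71, adjusted p = 0.863; the same limma fit). Exact two-sided permutation tests gave p = 0.5 for Anks1a and p between 0.4 and 0.9 for the Anks1b circRNAs, where 3 arrays against 3 cannot go below 0.1. The sucrose and naive arrays overlapped for all 6, while 13.4% of all probes tested did not overlap. None of the 6 passed the study threshold, which 4.77% of the probes did, and none had an unadjusted p below 0.05, against 1558 of all probes (11.1%) and 0 with an adjusted p below 0.05. The intervals reach from -0.43 to 0.82 on the log2 scale, so these data do not show that the groups are alike.

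The Anks1b part of this comparison leans on 1 rat. Sucrose 3 stood above the mean of sucrose 1 and 2 by 0.54 for rno_circRNA_015168, 0.80 for rno_circRNA_015171, 0.61 for rno_circRNA_015172, 0.50 for rno_circRNA_015180 and 0.55 for rno_circRNA_015182, but by 0.06 for Anks1a. Without it, the median Anks1b difference from naive was 0.012 in place of 0.25, and without sucrose 2 it was 0.43. Sucrose 3 is also the only sucrose array on slide 2 with the naive arrays. Set against the naive mean within that slide it was higher by 0.43 (rno_circRNA_015182) to 0.81 (rno_circRNA_015171) for Anks1b and by 0.17 for Anks1a. With the slide as a block the fit returned these same within-slide differences, such as 0.60 for rno_circRNA_015168 and 0.81 for rno_circRNA_015171. They set sucrose 3 alone against the naive arrays and are no separate result. Whether the slide or the rat set these values was not tested.

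Saline and naive rats were compared without a test, as the saline arrays took part in the choice. The log2 difference (saline minus naive) ran from -0.16 (rno_circRNA_015182) to -0.019 (rno_circRNA_015172) for the Anks1b circRNAs and was -0.32 for Anks1a. No Anks1b circRNA had groups free of overlap, nor did Anks1a, against 26.7% of all probes tested. The saline and naive arrays lay on different slides, and with the slide as a block, which rests on the sucrose arrays alone, the Anks1b median turned from -0.14 to 0.50. Group and slide cannot be told apart here without the sucrose arrays.

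**Figure D4:**
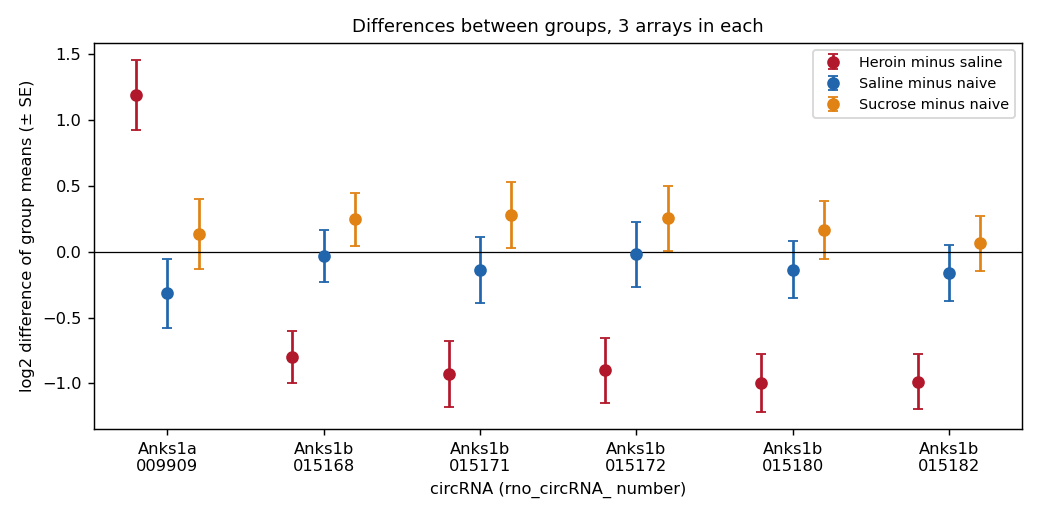
Log2 difference between group means with its SE for heroin minus saline (red), saline minus naive (blue) and sucrose minus naive (orange), for each circRNA, with 3 arrays in each group. The heroin minus saline points are at 1.19 for Anks1a and between -0.996 and -0.80 for Anks1b, and the sucrose minus naive points are between 0.06 and 0.28.

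Heroin and saline arrays all lay on slide 1, but in different rows except for saline 1, which shared a row with the 3 heroin arrays. Within that row, the heroin mean differed from saline 1 by -0.65 (rno_circRNA_015168), -0.72 (rno_circRNA_015171), -0.67 (rno_circRNA_015172), -1.01 (rno_circRNA_015180), -0.98 (rno_circRNA_015182) and 1.28 (Anks1a). The differences at the later Anks1b end were as large within the row as over all arrays, and those at the earlier end were nearer to 0. A single saline array gives these no spread of its own.

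The next description is of how the 6 circRNAs moved together from array to array. It used the 6 sucrose and naive arrays as deviations from their group means, so that neither the choice of members nor the difference between groups enters. Anks1b circRNAs with the same backsplice end followed each other with Pearson r from 0.96 to 0.99 (4 pairs, n = 6 arrays, Spearman's rho 0.94 to 1). Pairs with different ends had r from 0.65 to 0.83 (6 pairs, rho 0.77 to 0.83), although their probes share no long run. Anks1a paired with the Anks1b circRNAs gave r from -0.24 to 0.26 (5 pairs). All values come from the same arrays and normalization and are descriptions without a p.

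Over all 12 arrays, deviations from the group means gave r of 0.96 to 0.99 for the same end and 0.62 to 0.74 for different ends. Leaving out sucrose 3, the same-end range stayed at 0.96 to 0.99 (n = 11) and the different-end range dropped to 0.44 to 0.61. Part of the likeness between ends thus rests on that array. As the only sucrose array on slide 2, it does not let rat and slide be told apart. An r of at least 0.62 with a given Anks1b circRNA was found for 5.35% to 12.5% of the 13963 other probes compared. An r as high as the lowest same-end pair was found for at most 0.0215% of them.

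**Figure D5:**
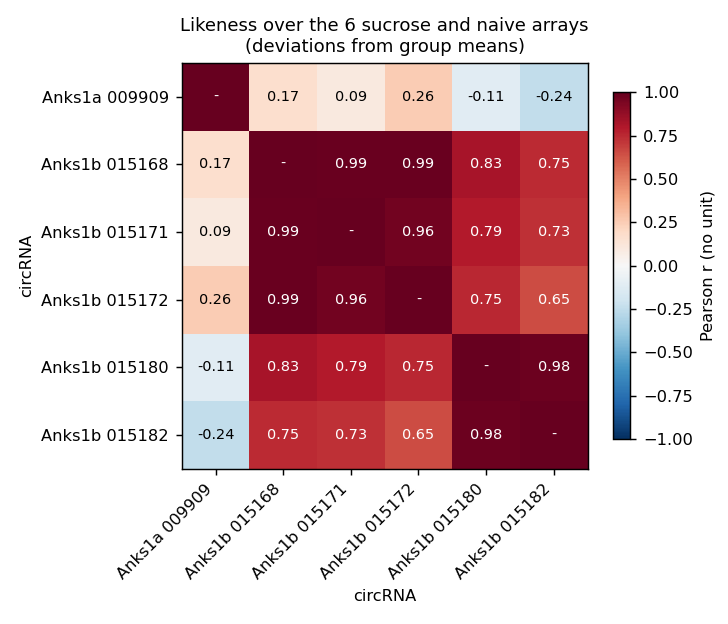
Pearson r between the 6 circRNAs over the 6 sucrose and naive arrays, each value taken as its deviation from the group mean; both axes list the circRNAs and the colour gives r from -1 to 1. Pairs within an Anks1b end reach 0.96 to 0.99, pairs across the ends 0.65 to 0.83, and pairs with Anks1a lie near 0.

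Among the other 13963 probes compared, the likest to the mean of the 5 Anks1b circRNAs over the 12 arrays were ASCRPR006571 (r = 0.97), ASCRPR012415 (r = 0.96) and ASCRPR000567 (r = 0.95). The last is rno_circRNA_002220 of Myh10, the gene of a non-muscle myosin heavy chain, and is on the same list. These r values take in the difference between heroin and saline rats by which the members, and the Myh10 circRNA, were chosen. On deviations from the group means the 3 probes had r of 0.85, 0.89 and 0.80 and ranked 65, 19 and 165. The means of the Myh10 circRNA were 6.52 in heroin, 7.48 in saline, 7.83 in sucrose and 7.46 in naive rats. The likest to Anks1a rno_circRNA_009909 were ASCRPR009628 (r = 0.92), ASCRPR007220 (r = 0.88) and ASCRPR009032 (r = 0.88), for which the list gives no host gene. On deviations from the group means these had r of 0.76, 0.74 and 0.79 and ranked 71, 84 and 48. ASCRPR009628 was well above background on 10 of 12 arrays, and in the deposited log2 values its r was 0.41, so its place depends on the source of the values.

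Of a list of 36 genes for postsynaptic scaffolds and their partners, 2 besides Anks1a and Anks1b had circRNAs among the 75, with 5 circRNAs in all. There were 3 from Grin2b, the gene of the GluN2B subunit that ANKS1B has been tied to. All 3 lay below the 9 other arrays in heroin rats, as did 0.909% of all probes and 16 of the 75 listed circRNAs. The heroin and saline differences of the Grin2b circRNAs were -0.81 (rno_circRNA_011731), -1.03 (rno_circRNA_011733) and -1.07 (rno_circRNA_011734). These differences were part of the choice, which favours that pattern, and a link to the Anks1b circRNAs was not tested. For rno_circRNA_011731 the paper's quantitative PCR went the other way, with a higher level after heroin in male rats and no significant difference in females. The other 2, rno_circRNA_011179 and rno_circRNA_011180 of the synaptic scaffold Magi2, were higher by 0.60 and 0.59 and did not stand clear of the 9 other arrays. Between sucrose and naive rats 0 of the 5 had an adjusted p below 0.05 (limma). One of them, Grin2b rno_circRNA_011734, passed the study threshold with a difference of 1.02 (SE 0.25, adjusted p = 0.323, limma).

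The supplementary list also names 5 microRNAs (miRNAs) per circRNA as predicted binders. A miRNA pairs with its targets mainly through its seed, bases 2 to 8, and prediction is by sequence, so none of this was measured on the array. The 30 entries for the 6 circRNAs named 26 different miRNAs, of which 23 were in the RefSeq miRNA table (GRCr8), with 19 seeds. For Anks1a, 4 of the 5 entries have one seed, shown here in capitals in their mature sequences, since they amount to a single family.
rno-miR-15b-5p: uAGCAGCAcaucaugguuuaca
rno-miR-16-5p: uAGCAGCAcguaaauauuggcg
rno-miR-322-5p: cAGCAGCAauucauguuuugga
rno-miR-497-5p: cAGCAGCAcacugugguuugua

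The fifth Anks1a entry was rno-miR-324-3p, with another seed. No miRNA was listed for both Anks1a and an Anks1b circRNA, and the seed of the family above occurred for 3 of the 75 listed circRNAs. Among the Anks1b circRNAs, rno-miR-145-5p was listed for both rno_circRNA_015168 and rno_circRNA_015171, and rno-miR-207, rno-miR-329-5p and rno-let-7i-3p for both rno_circRNA_015180 and rno_circRNA_015182. Among the 6 circRNAs, every miRNA listed for more than 1 was thus shared within a backsplice end, where the rings may share exons, and none across the ends. rno_circRNA_015172 shared none with the others of its end. The sharing was mostly not particular to an end, since rno-miR-207 was listed for 8 of the 75 circRNAs and rno-miR-145-5p and rno-miR-329-5p for 4 each. Only rno-let-7i-3p was listed for no circRNA besides its pair.

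The complement of each seed (7 letters) was looked for in the 60 bases of the matching probe, as read 5′ to 3′. This could be done for the 27 entries with a mature sequence in the table, and the letters were found for 2 of them. Both are in rno_circRNA_015171, whose probe holds TCGATGG from position 4, the site of 2 miRNAs with one seed, shown in capitals.
rno-miR-181a-1-3p: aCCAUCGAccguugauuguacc
rno-miR-181c-3p: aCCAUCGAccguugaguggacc

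Those 7 letters were in 1.33% of the 75 listed probes, that is, in the rno_circRNA_015171 probe alone. The overlapping probe of rno_circRNA_015168 starts with ATGG, the last letters of that site. Whether the site is found thus depends on where a probe starts, and it does not set rno_circRNA_015171 apart. Each probe covers only the surroundings of a junction. The sites of the other entries may therefore lie elsewhere in the rings, whose full sequence was not used here.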

How the data were processed

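The authors deposited the Agilent Feature Extraction 11.0.1.1 output of 12 one-colour arrays (Cy3; 1 male rat each), made from RNase R treated total RNA labelled with random primers. Per the file headers, the deposited processed signal is an intensity that the software had corrected for background and spatial trend within each array, with no normalization between arrays. The authors also deposited quantile-normalized log2 values, used as an alternative. Per the methods, signals were normalized by quantiles with limma. Here log2 of the processed signal, with 9 outlier spots left out, was quantile-normalized over the 12 arrays, and 13979 of 14145 circRNA probes, those well above background on at least 3 arrays, were fitted with limma 3.58.1 (R 4.3.3) as 4 group means with Benjamini-Hochberg adjustment. The number of arrays limits the precision. Labels gave the groups, and separate rats were the replicates.

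The members and gene lists were chosen with earlier results of these data known. Named are the 6 Anks1a and Anks1b circRNAs and the 3 probes with the highest Pearson r to the Anks1a circRNA and to the Anks1b mean. Grin2b and Magi2 come from the list of 36 scaffold and partner genes. The script was tested on simulated data. Alternatives were scaling to the 75th percentile, normexp (offset 50), the deposited values, other filters, only the arrays compared, replicate, slide and slide row as blocks, the methods' t-test in permitted comparisons, and leaving out each array. Replicate numbers come from the labels and did not pair the arrays.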

Additional observations from a re-analysis of the deposited data

How the results depend on the processing

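Over 13 alternatives, all 78 member values of heroin minus saline kept their sign. For many of them no other outcome was possible. A fit to only the arrays compared and the replicate block leave the difference unchanged. Groups that do not overlap, which the choice favours, keep their sign when 1 array is left out. With normexp, the Anks1b median was -0.65 in place of -0.93, and rno_circRNA_015168, at -0.56, fell short of a 1.5-fold difference. Leaving out 1 array at a time, the Anks1b median ran from -0.999 to -0.77 and Anks1a from 0.95 to 1.55. The heroin arrays stayed below the 9 others for 5 of 5 Anks1b circRNAs in the deposited values, with 75th percentile scaling and with normexp, alternatives chosen after seeing the data.

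Sucrose minus naive never reached an adjusted p below 0.05 for a member in 16 alternatives (0.48 to 1.00, limma or the methods' t-test), and 93 of 96 values kept their sign. The other filters, the replicate block, the methods' t-test and the fit to only the arrays compared leave the difference itself unchanged, so its sign could not turn there. The sign turned for Anks1a without naive 2 (-0.014), and for rno_circRNA_015182 without sucrose 3 (-0.12) and without naive 3 (-0.10). Leaving out 1 array, Anks1a ran from -0.014 to 0.23, rno_circRNA_015182 from -0.12 to 0.20 and the Anks1b median from 0.012 (without sucrose 3) to 0.43. With the slide block, which sets sucrose 3 alone against the naive arrays, the Anks1b median was 0.60.

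Over all probes, the count with an adjusted p below 0.05 between sucrose and naive was 2 with normexp, 3 in the deposited values and 0 to 11 without 1 array (11 without sucrose 3). The count past the study threshold was 667, and 145 with normexp, 285 in the deposited values, 254 with the methods' t-test, 92 with that test on the deposited values (chosen after seeing the data) and 444 (without naive 1) to 1327 (without sucrose 3; 1272 without naive 3). The causes were not tested.

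The saline minus naive median of Anks1b ran from -0.27 to -0.022 without 1 array and was 0.50 with the slide block, while Anks1a ran from -0.47 to -0.24. As a replicate block the numbers changed no call. The pairing check gave correlations of same-numbered deviations of -0.14 to -0.08 (sucrose and naive), -0.20 to -0.04 (heroin and saline) and -0.025 to 0.060 (saline and naive), and with the block Anks1a kept 0.14 (adjusted p = 0.882, limma) and the heroin and saline median -0.93.

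With 3 rats per group, 2 slides and probes that share bases, small differences were not detectable, and levels of different probes were not set against each other.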
